A study of Arabidopsis thaliana with 6 samples.

Results

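The transcripts of the chloroplast genome were followed in siliques, the seed pods of Arabidopsis thaliana, as all identifiers beginning with ATCG whose estimated counts summed to above 0 over the 6 libraries. This rule took 88 of the 27628 identifiers in the deposited table. The series compared siliques of wild type (WT) plants with siliques labelled shp1 shp2 mrpl1, with 3 libraries per group. The series title names thin shells, SHP and the unfolded protein response of mitochondria. SHP1 and SHP2 encode MADS-box proteins that specify the valve margin, where the ripe pod opens, and MRPL1 belongs to the L1 family of ribosomal proteins. Both groups grew on diluted Murashige and Skoog agar with sucrose, in long days, and per the labels' protocols the libraries were made from purified mRNA. The labels give neither the alleles nor the age of the plants, and they do not say whether replicates are separate plants, so the p-values reflect spread between samples that may be technical.

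The chloroplast genome is a small circular DNA that encodes part of the photosynthetic machinery, part of the plastid's own ribosome and RNA polymerase, and a few other proteins such as a subunit of the Clp protease. Its genes are read by a bacterial-type RNA polymerase, which takes its sigma factors from the nucleus, and by phage-type polymerases that are wholly nuclear-encoded. Many of the transcripts are long and shared by neighbouring genes, and nuclear-encoded proteins cut, trim, edit and protect chloroplast RNA. Most nuclear mRNAs carry a stable poly(A) tail, whereas A-rich tails on plastid RNA are short-lived and mark RNA for decay. Libraries made from purified mRNA therefore usually hold little chloroplast RNA. In siliques the green valves, the developing embryos and the other seed tissues all contain plastids.

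The sources used here pair few of the ATCG identifiers with a gene. Through notes on nuclear genes in the TAIR10.1 annotation, ATCG00670 is the plastid-encoded ClpP subunit of the Clp protease, ATCG00530 is CemA, a protein of the chloroplast envelope, ATCG00750 is ribosomal protein S11, ATCG00660 is ribosomal protein L20, ATCG01310 is ribosomal protein L2, and ATCG00430 is recorded as a photosystem II reaction center protein G. The name of ATCG00430 is that of the note alone, was not checked against another source, and is not taken as its role. All other rows are given here by identifier, with no role. Nor were reads shared between repeated genes separable: 7 pairs of rows, which is 14 rows, held identical values in all 6 libraries, so the 88 rows gave 81 distinct profiles. ATCG01310 and ATCG00830 were such a pair. Another pair, ATCG01000 and ATCG01130, held values that were not whole but summed to a whole number in 5 of the 6 libraries (tolerance 0.001), and in WT replicate 2 the summed 55 counts were divided into 1.76 and 53.2. Levels of these 16 rows are uncertain. The sources used here give no strand setting, so reads from overlapping transcripts of opposite strands could not be told apart.

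The genes of the genotype were checked first. The level of SHP1 was 42.3, 37.5 and 43.5 CPM (counts scaled to a common library size by TMM) in WT and 26.9, 31.5 and 28.4 in the libraries labelled mutant. The difference was -0.51 on the log2 scale (SE 0.087), with an adjusted p of 0.00242 from the quasi-likelihood test of edgeR. SHP2 stood at 110, 104 and 107 CPM in WT and 106, 110 and 102 in the mutant-labelled libraries. The locus taken as MRPL1 (AT2G42710) gave 15.1, 15.4 and 12.9 CPM against 16.3, 18.3 and 16.8 CPM. The groups overlapped for SHP2 and did not overlap for MRPL1, which was the higher in the libraries labelled as its mutant without passing the test (edgeR adjusted p = 0.172). SHP2 and MRPL1 were thus not lower in the libraries labelled as their mutants. Since the labels give no alleles, these levels cannot decide whether the label is right. The libraries are called mutant-labelled throughout. Both SHP genes overlap other annotated genes, SHP2 by 1756 bases and SHP1 by 564, so some of their reads may belong to those neighbours. All 8 silique and seed markers were present, while the root gene PYK10 stood at 0.634, 0.562 and 0.303 CPM in WT and 0.480, 0.329 and 0.335 in the mutant-labelled libraries. AP3, a marker of petals and stamens, was present at a mean of 73.4 CPM in WT and 79.2 in the mutant-labelled libraries, whereas PI, the other such marker, was near absent at means of 1.14 and 1.92, with no overlap between the groups and no call (edgeR adjusted p = 0.136). The silique and seed markers summed to between 33049 and 33722 CPM in WT and between 25521 and 27684 in the mutant-labelled libraries, with 5 of the 8 lower, SHP1 itself among them, and 1 higher in the latter. Most of these sums came from CRA1, at means of 22516.5 in WT and 18107 in the other group, and OLEO1, at 9968 and 7838. The 1 higher was MUM4, and STK and SHP2 were not called. Among all tested genes 4.07% were called lower and 4.89% higher. The part of this shift in the results that follow was not tested. In bulk tissue, fewer cells of a type and less RNA per cell cannot be told apart.

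Chloroplast transcripts made up a very small share of the counts in all 6 libraries, which were made from purified mRNA, and the groups overlapped in that share. WT replicates 1 to 3 held 2530, 5176 and 3696 chloroplast counts, which is 0.0121%, 0.0240% and 0.0185% of their 20883220, 21603816 and 19969915 counts. Mutant-labelled replicates 1 to 3 held 9676, 3676 and 3952, which is 0.0471%, 0.0206% and 0.0189% of 20563995, 17857873 and 20957661. The 95% Wilson interval was narrow beside these gaps, at 0.0117% to 0.0126% for WT replicate 1 and 0.0461% to 0.0480% for mutant-labelled replicate 1, and it covers counting error only. Mutant-labelled replicate 1 was the highest, WT replicate 1 was the lowest, and the other 4 libraries of both groups lay between them with the groups overlapping. The group means were 0.0182% ± 0.00593 in WT and 0.0288% ± 0.0158 in the other group (SD, n = 3 each). The difference was 0.0106 percentage points, with p = 0.4 in a two-sided exact permutation test, for which 20 assignments allow no p below 0.1. Without mutant-labelled replicate 1 the difference was 0.00153 percentage points, and with replicate 1 of both groups left out it turned to -0.00151.

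Transcripts of the mitochondrial genome, the other organelle genome, moved with the chloroplast share. Their counts were 1529, 2205 and 1667 in WT and 3284, 1779 and 2115 in the mutant-labelled libraries, or 0.00732%, 0.0102% and 0.00835% against 0.0160%, 0.00996% and 0.0101% of all counts. The same library was highest and the same library lowest for both organelles. The spread was the wider for the chloroplast: there were 1.65, 2.35 and 2.22 chloroplast counts per mitochondrial count in WT, and 2.95, 2.07 and 1.87 in the mutant-labelled libraries. What part a difference common to both organelles has in the chloroplast shares was not tested.

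**Figure D1:**
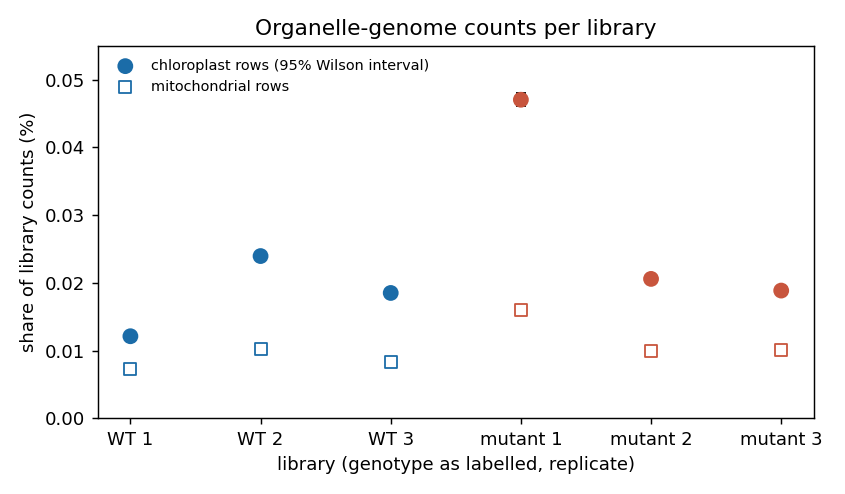
Share of each library's counts (percent, vertical axis) that fell on chloroplast rows (filled circles, 95% Wilson interval) and on mitochondrial rows (open squares), for 3 WT libraries (blue) and 3 mutant-labelled libraries (red). Mutant-labelled replicate 1 stands at 0.0471% and WT replicate 1 at 0.0121%, while the other 4 libraries lie between 0.0185% and 0.0240%.

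Few rows carried most of the chloroplast counts. The 8 most-counted rows held 67.5% of them and ATCG00020 alone held 29.9%. At the other end, 30 of the 88 rows did not pass the expression filter of the test, with at most 71.5 counts over the 6 libraries. Rows with fewer than 10 counts numbered 38, 28 and 35 in the WT libraries and 12, 38 and 34 in the mutant-labelled ones. The genotype comparison that follows therefore covers 58 rows.

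ATCG00020 had 414, 1426 and 1052 counts in WT and 3191, 1201 and 1291 counts in the mutant-labelled libraries. In CPM it stood at 20.2, 66.8 and 53.1 against 153, 65.8 and 61.7, and the groups overlapped. Its log2 fold change, mutant-labelled minus WT, was 1.00 (standard error, SE, 0.633; edgeR adjusted p = 0.460). Without mutant-labelled replicate 1 the value was 0.45, and without replicate 1 of both groups it was 0.09. As a share of all chloroplast counts, ATCG00020 took 16.4%, 27.6% and 28.5% in WT and 33.0%, 32.7% and 32.7% in the mutant-labelled libraries. These shares did not overlap between groups and lay close together in the mutant-labelled libraries. Of the 58 tested rows, 4 had shares that were higher without overlap in the mutant-labelled libraries and 6 had shares that were lower. The 4 include the identical rows ATCG00860 and ATCG01280. The 6 include the identical pairs ATCG00900 with ATCG01240 and ATCG00905 with ATCG01230. Other genes have no such share, but in CPM 13.7% of all tested genes were higher without overlap and 12.3% were lower. When chloroplast rows were scaled by the chloroplast total of each library, the log2 fold change of ATCG00020 was 0.43 and it did not pass the test (edgeR adjusted p = 0.171).

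The next 3 rows behaved differently from each other once the library total was taken out. ATCG00490 had 215, 389 and 276 counts in WT and 925, 296 and 336 in the mutant-labelled libraries, and ATCG00280 had 203, 391 and 255 against 669, 243 and 242. For ATCG00490 the share of chloroplast counts was 8.50%, 7.52% and 7.47% in WT and 9.56%, 8.05% and 8.50% in the mutant-labelled libraries. For ATCG00280 it was 8.02%, 7.55% and 6.90% against 6.91%, 6.61% and 6.12%. Both shares thus stayed within a narrow band over libraries whose chloroplast totals lay far apart. ATCG00350, with 94, 360 and 259 counts against 566, 141 and 195, took 3.72%, 6.96% and 7.01% in WT and 5.85%, 3.84% and 4.93% in the mutant-labelled libraries, and its groups overlapped on that scale too. ATCG00340 ran alongside it, at 86, 369 and 204 counts in WT and 545, 158 and 132 in the mutant-labelled libraries. None of these rows passed the test with TMM scaling. ATCG00490 passed it when scaled by the chloroplast total without ATCG00020 (log2 fold change 0.34, edgeR adjusted p = 0.0384).

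The remaining rows among the most-counted also peaked in mutant-labelled replicate 1. ATCG00270 had 152, 235 and 141 counts in WT and 453, 133 and 156 counts in the mutant-labelled libraries. ATCG00680 stood at 113, 226 and 145 against 426, 137 and 171, and it followed the chloroplast total more closely than any other tested row, with a coefficient of variation of 7.19% in its share of chloroplast counts over the 6 libraries. ATCG00480 gave 105, 136 and 123 against 188, 107 and 117. In all 3 rows the groups overlapped.

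**Figure D2:**
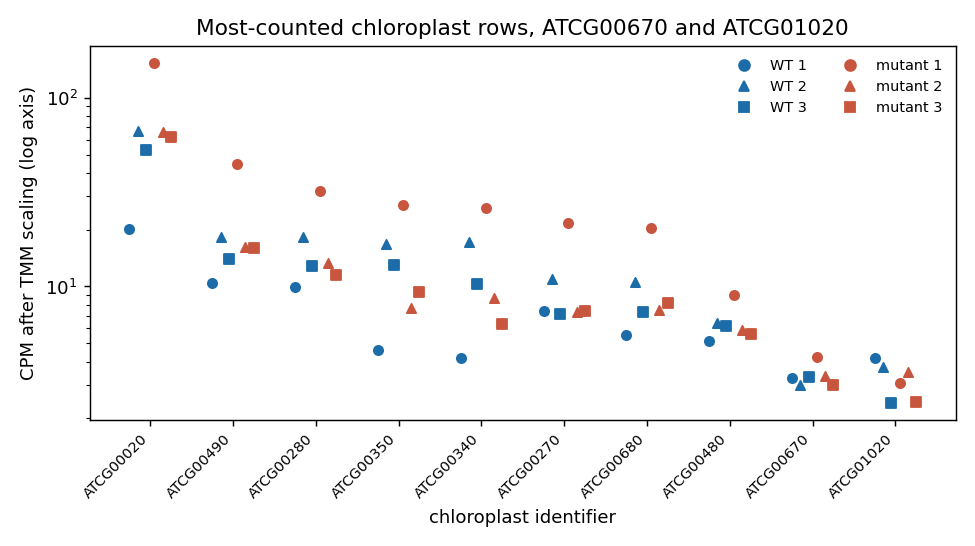
Level in CPM after TMM scaling (log axis) of the 8 most-counted chloroplast rows and of ATCG00670 (ClpP) and ATCG01020, 1 symbol per library, WT in blue and mutant-labelled in red. Mutant-labelled replicate 1 is the highest library for all 8 most-counted rows, at 153 CPM for ATCG00020. WT replicate 2 comes nearer to it for ATCG00480 (9.02 against 6.37 CPM), ATCG00340 (26.1 against 17.3 CPM) and ATCG00350 (27.2 against 16.9 CPM). For ATCG00670, mutant-labelled replicate 1 lies near the other libraries, at 4.22 CPM.

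Some chloroplast rows varied less between libraries than most. ATCG00670, the plastid-encoded ClpP subunit, had 67, 64 and 66 counts in WT and 88, 61 and 63 in the mutant-labelled libraries. Its coefficient of variation over the 6 libraries in CPM was 13.3%, the lowest of the 58 tested rows, whose median was 42.2%. Its share of chloroplast counts was 2.65%, 1.24% and 1.79% in WT and 0.909%, 1.66% and 1.59% in the mutant-labelled libraries. ATCG00530, the envelope protein CemA, had 31, 30 and 25 counts in WT and 40, 39 and 40 in the mutant-labelled libraries. ATCG01020 had 86, 80 and 48 counts against 64, 64 and 51, and ATCG00190 had 61, 90 and 87 against 100, 64 and 62. The coefficient of variation in CPM was 20.4% for CemA, 22.2% for ATCG01020 and 20.3% for ATCG00190. In these 4 rows the CPM of mutant-labelled replicate 1 was 1.29, 1.27, 0.732 and 1.61 times that of WT replicate 1, in the order given. Other rows were as steady: ATCG01090 at 15.5% and ATCG00220 at 19.1% varied less than all of the 4 but ClpP. ATCG00480, at 21.6%, varied less than ATCG01020.

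The gap between the libraries with the highest and the lowest chloroplast total differed in size from row to row. These libraries were picked for their totals, so the values describe that pair of libraries and not the genotypes. The chloroplast total in CPM was 3.76 times as high in mutant-labelled replicate 1 as in WT replicate 1, and 3.02 times as high without ATCG00020. Over the 58 tested rows the ratio ran from 0.732 to 21.6 with a median of 2.28; it was under 2 in 26 rows, from 2 to under 4 in 15, and 4 or more in 17. ATCG00020 had a ratio of 7.58 (95% counting interval 6.84 to 8.42) and ATCG00490 had 4.23 (3.64 to 4.93). The counting interval was 0.929 to 1.80 for ClpP, 0.774 to 2.10 for CemA and 0.521 to 1.02 for ATCG01020, rows named here because their ratios were low. Some other rows had lower ratios than ClpP and CemA, among them ATCG01090 (0.939) and ATCG00810 (0.983). The intervals cover counting error in these libraries and not the spread between replicates. The highest ratio, in ATCG01110, rested on 1 count in WT replicate 1 against 22 in mutant-labelled replicate 1.

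**Figure D3:**
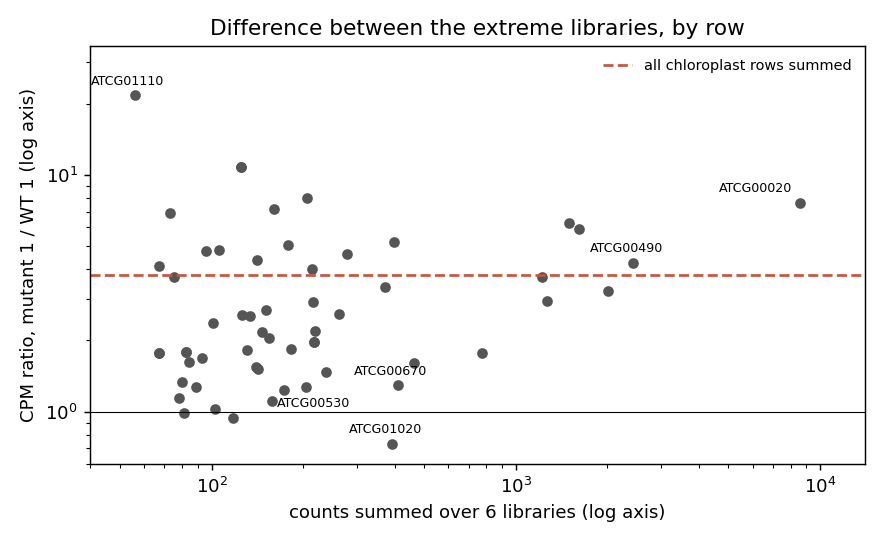
CPM in mutant-labelled replicate 1 divided by CPM in WT replicate 1 (log axis) against counts summed over the 6 libraries (log axis), 1 point per tested chloroplast row. The dashed line is the ratio of all chloroplast rows summed, 3.76, and the solid line is 1. Rows of like total count lie on both sides of the dashed line, from 1.29 for ATCG00670 to 5.18 for ATCG00720.

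The comparison of genotypes called no chloroplast row. With edgeR p-values adjusted by Benjamini-Hochberg over all 20827 tested genes, 0 of the 58 tested rows were higher and 0 were lower in the mutant-labelled libraries, where 4.89% of all tested genes were called higher and 4.07% lower. At an unadjusted p under 0.05 there were 8 rows, all higher, which is 7 distinct profiles, beside 21.8% of all genes in either direction and 11.3% higher. DESeq2 also called 0 rows, with 6 at an unadjusted p under 0.05, where 4.46% of all genes were called higher and 3.66% lower. Limma voom called 1 row higher, ATCG01000, whose reads are divided with ATCG01130, where 10.2% of all genes were called higher and 9.67% lower. Scaling by the chloroplast total without ATCG00020 called ATCG00490 higher, where 4.91% of all genes were called higher and 4.1% lower. With replicate 1 of both groups left out, ATCG01000 was called higher and ATCG00350 and ATCG00280 lower, where 15.3% of all genes were called higher and 15.8% lower. The log2 fold changes ran from -0.50 in ATCG00810 to 1.34 in ATCG01110, with a median of 0.41 where that of all genes was 0.00; 47 were positive and 11 negative. Relative to the chloroplast total of each library, the median was -0.20 instead, and with limma voom it was 0.05. The median of 0.41 rested on mutant-labelled replicate 1, the highest library in 54 of the 58 rows. Leaving that library out gave -0.03. Leaving out the others gave 0.30, 0.74 and 0.44 for WT replicates 1 to 3, and 0.61 and 0.69 for mutant-labelled replicates 2 and 3. The expression filter was run anew for each of these fits. The medians therefore cover 59 rows without mutant-labelled replicate 1 and between 64 and 68 rows in the others. In the main fit the median biological coefficient of variation was 21.8% for the 58 rows against 8.00% over all genes. These medians include mutant-labelled replicate 1 and are not matched for level. Whether chloroplast rows vary more than other genes of like level was not tested.

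Among the 8 rows with an unadjusted p under 0.05, ATCG00040 had the smallest adjusted p. It had 13, 21 and 10 counts in WT and 34, 22 and 26 in the mutant-labelled libraries, which gave 0.93 on the log2 scale (SE 0.310, edgeR adjusted p = 0.0865) and between 0.74 and 1.25 with each library left out. CemA came with 0.51 on the log2 scale (SE 0.216, edgeR adjusted p = 0.186), which stayed between 0.44 and 0.57 when each library was left out. Both rows had groups that did not overlap in CPM, but their shares of chloroplast counts did overlap. Scaled by the chloroplast total, CemA stood at -0.05 and ATCG00040 at 0.36. The remaining rows were ATCG00860 with its identical partner ATCG01280 (1.17), ATCG00510 (1.06), ATCG00300 (0.96), ATCG00580 (0.77) and ATCG00140 (0.72). Without mutant-labelled replicate 1 these values were 0.76 for ATCG00860 and ATCG01280, 0.40 for ATCG00300, 0.41 for ATCG00580 and 0.31 for ATCG00140. In all, groups did not overlap in CPM in 6 rows that were higher and 1 that was lower in the mutant-labelled libraries, ATCG00810, beside 13.7% and 12.3% of all tested genes. ATCG00810 had 15, 18 and 15 counts in WT and 15, 9 and 9 in the mutant-labelled libraries. With 58 rows tested, such numbers lie near or under the share among all genes.

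**Figure D4:**
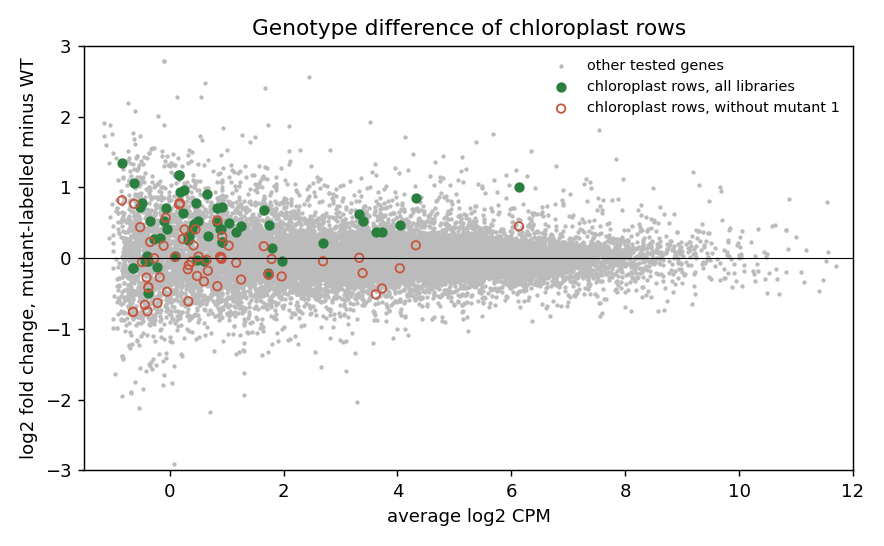
Log2 fold change, mutant-labelled minus WT (vertical axis), against average log2 CPM for all tested genes (grey), for the chloroplast rows over all libraries (green) and for the same rows with mutant-labelled replicate 1 left out (open red). The chloroplast rows sit mostly above 0 with all libraries, at a median of 0.41. Without that library they sit around 0, at a median of -0.03 over the 59 rows of that fit, ATCG00210 (not drawn) included. Scaled by the chloroplast total (not drawn), their median lies below 0, at -0.20.

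Where a length was known, levels could be set side by side per kilobase of coding sequence. ClpP, whose gene has 3 coding exons and a coding length of 591 bases in TAIR10.1, stood at 5.41 ± 0.301 CPM per kilobase in WT and 5.96 ± 1.06 in the mutant-labelled libraries (SD, n = 3). CemA, with 690 coding bases, stood at 2.02 ± 0.182 and 2.88 ± 0.185. The ribosomal protein L20 row, ATCG00660, stood at 1.27 ± 0.851 and 2.13 ± 0.931, and the S11 row, ATCG00750, which did not pass the expression filter, at 0.651 ± 0.521 and 1.03 ± 0.755. The order ClpP, CemA, L20, S11 held in both groups, but the spreads of L20 and CemA overlapped in both, as did those of S11 and L20. L20 rested on 3, 16 and 9 counts in WT and 21, 16 and 8 in the mutant-labelled libraries, and S11 on 2, 11 and 4 against 16, 7 and 3. The L2 row, ATCG01310, summed with its identical partner, had 53, 71 and 78 counts in WT and 104, 53 and 75 counts in the mutant-labelled libraries. ATCG00430, for which only the unchecked name in the note is at hand, had 17, 17 and 7 counts against 22, 11 and 15. None of the 5 annotated rows that were tested passed the threshold, CemA having the smallest adjusted p.

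Of the nuclear genes that serve the transcription of the chloroplast genome, 1 passed the test between the groups. A list of 21 genes held the phage-type polymerases, the sigma factors and the proteins associated with the bacterial-type polymerase, all of them tested. None was higher and 1 was lower in the mutant-labelled libraries, a share near the 4.89% and 4.07% of all tested genes called higher and lower, and the median log2 fold change was -0.01. That gene was SIG5 (reference symbol SIGE, AT5G24120), a sigma factor known for its response to light and stress. It had 94.8, 91.0 and 84.6 CPM in WT and 73.3, 76.0 and 76.1 in the mutant-labelled libraries, with no overlap. The difference was -0.26 on the log2 scale (SE 0.070, edgeR adjusted p = 0.0328). The call held in 1 of 6 fits with a library left out, where adjusted p in edgeR ran from 0.0475 to 0.124, so leaving out any library but WT replicate 1 ended it, as did scaling by library totals (edgeR adjusted p = 0.0570). The next smallest adjusted p values were those of PTAC6 (log2 fold change 0.22, edgeR adjusted p = 0.112) and of TRXZ, a plastid thioredoxin (0.31, edgeR adjusted p = 0.133). The summed level of the list was 444, 461 and 449 CPM in WT and 454, 442 and 427 in the mutant-labelled libraries, so mutant-labelled replicate 1, which led in chloroplast counts, did not stand apart in it.

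Genes for the processing and protection of chloroplast RNA gave a like picture. Of 22 listed genes 19 were tested. HCF145 was left out because the reference describes its locus differently, MORF2 was not analysed here and CRR4 did not pass the expression filter. None was higher and 1 was lower, again near the 4.89% and 4.07% among all tested genes, with a median log2 fold change of -0.07. HCF152, a pentatricopeptide repeat protein needed for processing of a chloroplast transcript of the cytochrome b6f complex, had 27.7, 28.2 and 28.8 CPM in WT and 23.0, 21.1 and 22.4 in the mutant-labelled libraries, which is -0.35 on the log2 scale (SE 0.078, edgeR adjusted p = 0.0132). The call held in 2 of 6 fits with a library left out, with edgeR adjusted p between 0.00934 and 0.0673, and leaving out replicate 2 or 3 of either group ended it. The HCF152 gene overlaps a neighbour by 67 bases in the annotation, and HCF173 overlaps others by 373. HCF173, which is needed for translation of a photosystem II subunit, had 67.4, 72.7 and 76.9 CPM against 63.4, 57.1 and 62.0 and did not pass the test (log2 fold change -0.25, edgeR adjusted p = 0.0631). Next came MORF9, an RNA-editing factor (0.17, edgeR adjusted p = 0.213). The list summed to 508, 523 and 531 CPM in WT and 507, 475 and 498 in the mutant-labelled libraries.

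The nuclear genes whose proteins join chloroplast-encoded subunits in a common complex held genes called higher. Of 20 tested, 3 were higher and 0 were lower, beside 4.89% and 4.07% of all tested genes, 19 had a positive log2 fold change, and the median was 0.16, where that of all genes was 0.00. PRPS5 (reference symbol EMB3113), a protein of the plastid ribosome, had 51.0, 50.5 and 48.7 CPM in WT and 62.0, 61.0 and 61.3 in the mutant-labelled libraries, which is 0.30 on the log2 scale (SE 0.068, edgeR adjusted p = 0.0144). PSBO1, a subunit of the oxygen-evolving complex of photosystem II, had 663, 616 and 603 CPM against 707, 720 and 791 (0.24, SE 0.065, edgeR adjusted p = 0.0379). PSBP1, another subunit of that complex, had 551, 493 and 490 CPM against 579, 612 and 600 (0.22, SE 0.064, edgeR adjusted p = 0.0443). The groups of these 3 genes did not overlap, and all lay within 1.23-fold of WT. PRPS5 was called in 3 of 6 fits with a library left out, and PSBO1 and PSBP1 in 2 of 6 each; leaving out WT replicate 2 or 3 or mutant-labelled replicate 3 ended all 3 calls, and leaving out mutant-labelled replicate 2 ended those of PSBO1 and PSBP1. PSBO1 and PSBP1 were also not called by DESeq2, with adjusted p of 0.0503 and 0.0645. ATPD, a subunit of the chloroplast ATP synthase (0.22, edgeR adjusted p = 0.0658), and PRPL11, a protein of the plastid ribosome (0.22, edgeR adjusted p = 0.0738), did not pass. The list summed to 5975, 5595 and 5692 CPM in WT and 6159, 6321 and 6618 in the mutant-labelled libraries, without overlap. The largest part of these sums came from RBCS1A, at means of 2229 in WT and 2407 in the other group (edgeR adjusted p = 0.295). In the sums mutant-labelled replicate 1 was the lowest of its group, while it was the highest in chloroplast counts. The 4 RBCS genes in the list are related genes whose reads may have been divided by the counting, and none of them was called.

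**Figure D5:**
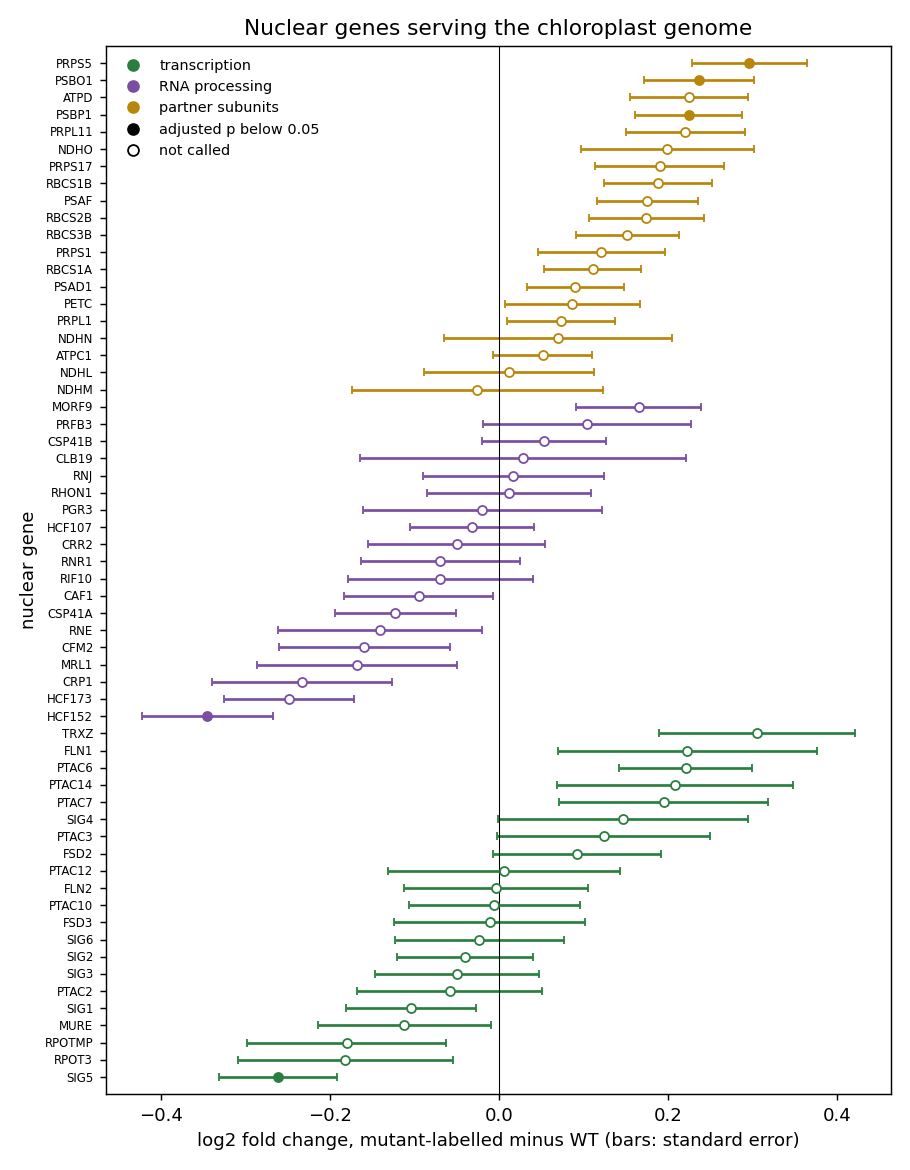
Log2 fold change, mutant-labelled minus WT, with its standard error, for the tested nuclear genes of 3 lists: plastid transcription (green), plastid RNA processing (purple) and partner subunits (ochre). Filled symbols passed an adjusted p of 0.05 in edgeR: SIG5 at -0.26, HCF152 at -0.35, PSBP1 at 0.22, PSBO1 at 0.24 and PRPS5 at 0.30.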

How the data were processed

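RNA-seq libraries of siliques, 3 WT and 3 labelled shp1 shp2 mrpl1, were analysed. The authors deposited 1 table of estimated counts per identifier, in which between 2.95% and 3.47% of values per library were not whole (tolerance 1e-09). Genome build, annotation, strand setting and the handling of reads with several matches are not given in the sources used here. Tools in the submitters' processing notes are featureCounts 1.6.3, HISAT2, Trimmomatic 0.39, DESeq2 and FastQC 0.11.9, with no roles stated. The genotype label gave the group and the title the replicate number.

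Counts were rounded and fitted over all genes with edgeR 4.0.16 in R 4.3.3 (TMM scaling, default expression filter with a minimum count of 10 and a minimum total of 15, robust quasi-likelihood test, genotype as the only term), and Benjamini-Hochberg adjusted p under 0.05 was the threshold. A standard error is the size of the log2 fold change over the root of F. Levels are CPM after TMM scaling. For shares an exact permutation test (scipy 1.17.1) went over 20 assignments of libraries to groups. Ratios between libraries carry 95% exact counting intervals. Alternatives were DESeq2 size factors, library totals, TMM over nuclear genes, the DESeq2 1.42.0 test, limma 3.58.1 voom with quality weights, 2 other filters, a replicate block, scaling by the chloroplast total, and leaving out each library or replicate 1 of both groups. Scaling by the chloroplast total without ATCG00020 was added after seeing the data.

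The members and lists were chosen with earlier results of these data known. The naming rule asked for called rows, the 8 rows with the highest level per kilobase and set representatives of each role. Since identifiers could be paired with genes for few rows, the 8 most-counted rows, rows with an unadjusted p under 0.05, annotated rows and rows that stood out in a stated comparison were named instead, after their values were seen. Nuclear genes named are those called and the next 2 by adjusted p in each list. Names, notes and coding lengths came from the TAIR10.1 RefSeq annotation. No sequences are printed.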

Additional observations from a re-analysis of the deposited data

How the results depend on the processing

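The count of chloroplast rows called higher went from 0 to 1 with limma voom (ATCG01000), with scaling by the chloroplast total without ATCG00020 (ATCG00490, log2 fold change 0.34, edgeR adjusted p = 0.038) and with replicate 1 of both groups left out (ATCG01000, 1.39, edgeR adjusted p = 0.0285). The last setting also called 2 rows lower, ATCG00350 at -0.81 (edgeR adjusted p = 1.36e-07) and ATCG00280 at -0.34 (edgeR adjusted p = 0.0264), against 0.36 and 0.47 with all libraries. With 2 libraries per group it called 15.3% of all genes higher and 15.8% lower. The share difference reversed to -0.00151 percentage points there, and it ran from 0.00153 to 0.0156 with each library left out. The other settings, leaving out each library included, called 0 chloroplast rows in both directions. The median log2 fold change of the chloroplast rows was -0.20 when they were scaled by the chloroplast total and -0.05 by that total without ATCG00020. Library totals moved the higher share of all called genes from 54.6% to 65.1%. With library totals, limma voom and replicate 1 of both groups left out, calls were 0, 4 and 8 for plastid transcription (1 in the main comparison) and 7, 11 and 13 for partner subunits (3), where DESeq2 gave 1. Over all genes, library totals called 1252 higher and 671 lower and voom called 2118 and 2013, against 1018 and 847. For RNA processing voom gave 3 and the last setting 7 (1). With each library left out, calls ran from 0 to 4, from 0 to 3 and from 0 to 6 for transcription, RNA processing and partner subunits. The highest number of each list came without WT replicate 1, where 1534 of all 21045 tested genes were called higher and 1468 lower. Without mutant-labelled replicate 3, where each list had 0 calls, 578 of all 21045 were called higher and 426 lower. The cause was not tested. Among values of single genes under all settings, 559 stayed on their side of the threshold, 22 came to pass it, 28 no longer passed and 2 passed it in the other direction. Direction was less stable among rows that were not called: of 24 named chloroplast rows, 11 changed sign when scaled by the chloroplast total, 9 by that total without ATCG00020, 9 without mutant-labelled replicate 1, 9 with replicate 1 of both groups left out, 4 with voom, 2 without WT replicate 1 and 1 without WT replicate 3.

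The labels do not say that the replicate numbers pair the samples. Deviations from the group means correlated at -0.364, -0.188 and -0.116 for numbers 1, 2 and 3. Between unlike numbers the correlations ran from -0.102 to 0.259. Deviations cancel within each group, which ties these values to each other, so they cannot decide whether the numbers pair the samples. With the replicate block, 475 genes were called higher and 320 lower, against 1018 and 847, and calls were 0 in each nuclear list and 0 in either direction among chloroplast rows; the share difference stayed 0.0106 percentage points (p = 0.75, exact test over 8 sign flips, smallest possible p 0.25). Depth is a limit too: 30 of 88 rows did not pass the expression filter.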
